A study of Mus musculus with 7 samples.

Results

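The 9 genes described here encode enzymes that build sphingolipids: Sptlc1, Sptlc2 and Degs1 for ceramide, Sgms1 for sphingomyelin, Ugt8a for galactosylceramide, Ugcg for glucosylceramide, and St3gal5, St8sia1 and B4galnt1 for gangliosides. They were listed by name, out of 12393 genes with a probe set of their own on the array. Every probe set annotated to them was taken, which gave 20 probe sets, none of them also annotated to another gene. The list was drawn up when the difference between the 2 groups of arrays was already known, so the members' differences are given as a description with no p-value, and a call of a member records only its side of the threshold in the fit over all probe sets. The arrays came from MN9D, a mouse cell line of dopaminergic character that arose as a hybrid of a midbrain neuron and a neuroblastoma cell. Labelled RNA was hybridised to Affymetrix Mouse Genome 430A 2.0 arrays, with 4 arrays of MN9D cells labelled as overexpressing both the alpha and the beta chain of mouse hemoglobin and 3 arrays of MN9D cells that expressed an empty vector. A further control array that failed the submitters' quality assessment was not used here. Whether each population was grown from 1 clone, and whether replicates were separate cultures, is not given in the sources used here, so p-values below rest on the spread among arrays alone, part or all of which could be technical. Nor is the promoter of the vectors given.

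Sphingolipids share a ceramide backbone, made in the endoplasmic reticulum from serine and palmitoyl-CoA. Ceramide then receives a phosphocholine head, which gives sphingomyelin, a galactose, which gives the galactosylceramide that is abundant in myelin, or a glucose, the first sugar of the gangliosides that neurons carry at high density on their surface. Ugt8a and Ugcg therefore draw on the same precursor at a branch point, and the sialic acids of gangliosides are added after the glucose branch.

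The values are log2 expression values that the authors made with RMA, a procedure that corrects background, gives all arrays the same distribution and summarises the probes of a probe set. Array medians lay between 8.90 and 8.94, arrays of one group correlated at 0.9985 to 0.9990 and arrays of different groups at 0.9903 to 0.9917. The precision of every value is limited by there being 7 arrays. The globin label was borne out in part: 3 of 5 adult alpha-globin probe sets rose by 5.16 to 7.15, whereas 1 of 3 adult beta-globin probe sets rose, by 0.34, so the arrays are called globin-labelled. Of 6 dopaminergic and catecholaminergic markers, each read by its probe set with the highest mean, none lay below the arrays' 10th percentile on all 7 arrays. The same held for the erythroid and endothelial markers read below, so this does not tell cell types apart. Nr4a2 and Pitx3 were not called, with -0.13 ± 0.09 and 0.06 ± 0.07, though the other Nr4a2 probe set was called lower, with -0.28 ± 0.06. Dbh, which makes noradrenaline from dopamine, rose by 0.74 ± 0.07 (limma adjusted p = 3.27e-05), while Th and Ddc, which make dopamine from tyrosine, fell by 0.70 ± 0.05 and 0.22 ± 0.05 (limma adjusted p = 1.14e-05 and 0.00866), and the dopamine transporter gene Slc6a3 differed by 0.04 ± 0.07. Over all 22626 probe sets 39.5% were called at a limma adjusted p under 0.05, 18.3% higher and 21.2% lower, and the groups did not overlap at 43.5%. A difference is the mean log2 value of the 4 globin-labelled arrays less that of the 3 empty vector arrays, given ± its standard error from limma.

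Among the 9 genes, the signal of Ugt8a was higher in the globin-labelled arrays on both probe sets, by 3.28 and 0.72, and that of Ugcg was lower on all 3, by 0.32 to 0.45. Degs1 was lower by 0.35 and 0.50, and St3gal5 was higher by 0.36 and 0.35. Sptlc2 and both probe sets of Sgms1 differed by 0.14 at most. Of the 20 probe sets, 6 were called higher and 6 lower (background 18.3% and 21.2%), and nothing is read from these shares because the genes were listed with this contrast known. At 11 of the 20 the groups did not overlap (background 43.5%). The median difference was 0.04 over the 20 probe sets and 0.01 over all probe sets, and the median size of the difference was 0.28 and 0.12. The SD within a group ran from 0.01 to 0.20 among the members, with a median of 0.06 in globin-labelled and 0.07 in empty vector arrays, the same as over all probe sets.

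**Figure D1:**
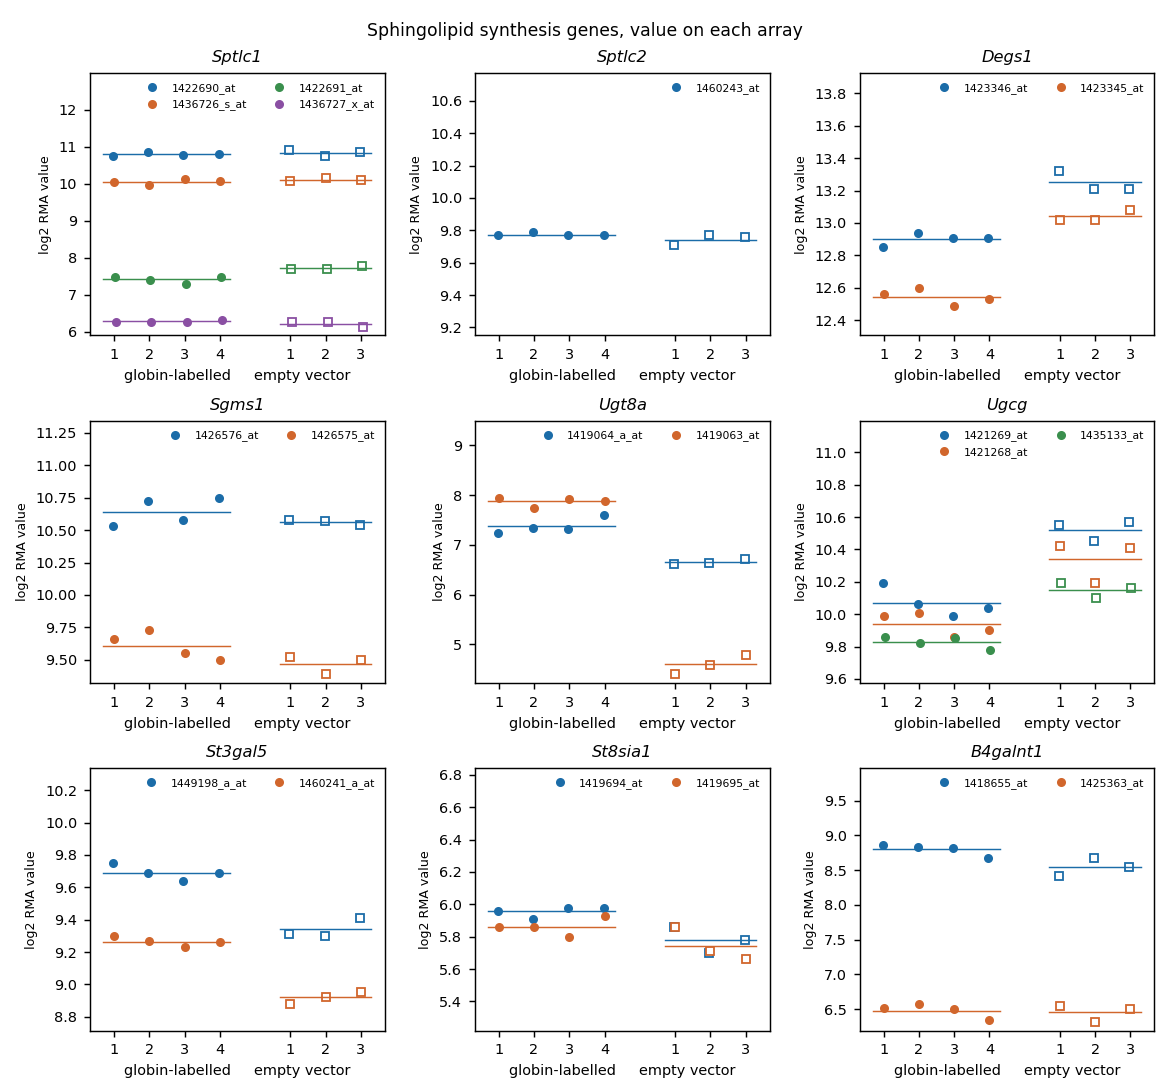
The log2 RMA value (vertical axis) of every probe set of the 9 genes on each array, with globin-labelled replicates 1 to 4 as filled circles and empty vector replicates 1 to 3 as open squares; lines mark group means and each panel has its own scale of log2 units. The groups lie apart on all probe sets of Ugt8a, Ugcg, Degs1 and St3gal5, and overlap on those of Sptlc2 and Sgms1.

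Sptlc1 and Sptlc2 encode the long subunits of serine palmitoyltransferase, the enzyme that commits serine to the pathway. Sptlc2 had 1 probe set, which read 9.77, 9.79, 9.77 and 9.77 in the globin-labelled arrays and 9.71, 9.77 and 9.76 in the empty vector arrays. These ranges touch, and the difference was 0.03 ± 0.04. Sptlc1 had 4 probe sets, whose differences did not share a sign. Probe set 1422690_at averaged 10.80 ± 0.05 in globin-labelled and 10.84 ± 0.08 in empty vector arrays (SD), with overlapping ranges and a difference of -0.04 ± 0.05. The probe set 1436726_s_at, whose suffix marks probes shared by several transcripts, differed by -0.05 ± 0.05. Of the 4, 1422691_at alone kept the groups apart, with 7.49, 7.41, 7.29 and 7.49 in globin-labelled arrays and 7.70, 7.71 and 7.78 in empty vector arrays, a difference of -0.31 ± 0.06. The fourth, 1436727_x_at, carries the suffix for probes that may cross-hybridise, held the same value on 4 of the 7 arrays and differed by 0.06 ± 0.05. The 4 differences spanned 0.37, so a direction for Sptlc1 depends on which probe set is read.

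Degs1 encodes the desaturase that turns dihydroceramide into ceramide, the last step of the backbone. Its probe set 1423345_at read 12.56, 12.60, 12.49 and 12.53 in the globin-labelled arrays, against 13.02, 13.02 and 13.08 in the empty vector arrays. Every globin-labelled array lay below every empty vector array, by a difference of -0.50 ± 0.04, or a signal 1.41-fold lower. The second probe set, 1423346_at, had the same order, with 12.85 to 12.94 in globin-labelled and 13.21 to 13.32 in empty vector arrays and a difference of -0.35 ± 0.04. The 2 probe sets thus gave the same direction, with differences 0.15 apart.

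Sgms1 encodes the Golgi sphingomyelin synthase, which moves phosphocholine onto ceramide. Its probe set 1426576_at read 10.53, 10.72, 10.58 and 10.75 in the globin-labelled arrays and 10.58, 10.57 and 10.54 in the empty vector arrays. Probe set 1426575_at read 9.50 to 9.73 in globin-labelled and 9.39 to 9.52 in empty vector arrays. The ranges overlapped on both, and the differences were 0.08 ± 0.06 and 0.14 ± 0.06.

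Ugt8a encodes ceramide galactosyltransferase, which makes galactosylceramide and is known for its role in oligodendrocytes and Schwann cells. Its probe set 1419063_at read 7.95, 7.75, 7.93 and 7.89 in the globin-labelled arrays, against 4.40, 4.59 and 4.79 in the empty vector arrays. The groups did not overlap, and the difference was 3.28 ± 0.09, a 9.72-fold higher signal. In the list of all probe sets ordered from the highest difference down it held place 7. All 3 empty vector values lay below the arrays' 10th percentile, which ran from 5.36 to 5.44, so the fold is one of signal over dim values and not of transcript number. The second probe set, 1419064_a_at, whose suffix marks alternative transcripts of one gene, read 7.23, 7.34, 7.31 and 7.60 in globin-labelled and 6.62, 6.64 and 6.71 in empty vector arrays. The groups again did not overlap, with a difference of 0.72 ± 0.08 or 1.64-fold and globin-labelled replicate 4 the highest. The 2 differences were 2.56 apart, the widest gap between probe sets of any of the 9 genes. In bulk RNA a larger share of cells with the transcript and more transcript in each cell cannot be told apart.

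Of 9 measured markers of oligodendrocytes and Schwann cells 1 rose and 1 fell, which is 22.2% called, against 40.7% of all genes. Pmp22, a myelin membrane protein that many other cells express, rose by 0.66 ± 0.04 (limma adjusted p = 6.12e-06). Mbp, the gene of myelin basic protein, fell by 0.70 ± 0.06 (limma adjusted p = 1.69e-05), with 5 of its 8 probe sets called lower and 1 called higher. The other 7 were not called: Cnp differed by -0.06 ± 0.04, Sox10 by 0.04 ± 0.05, Mag by 0.10 ± 0.06, Olig1 by 0.08 ± 0.05 and Mobp by 0.13 ± 0.05, while Mog and Olig2 lay below the 10th percentile on all 7 arrays. The median difference of the list was 0.04, against 0.02 over all genes. The log2 of the markers' summed signal was 12.45 to 12.49 in globin-labelled and 12.19 to 12.24 in empty vector arrays. Pmp22 was the brightest of them, with means of 11.58 in globin-labelled and 10.92 in empty vector arrays. Cnp came next, with 10.77 and 10.84, and Mbp had 7.83 and 8.53. The higher sum thus follows Pmp22 and is not a rise of the list as a whole.

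Astrocyte markers had 1 called higher and 0 lower of 6, which is 16.7% called, against 40.7% of all genes. Their median difference was 0.07, against 0.02 over all genes. Gfap differed by -0.04 ± 0.06, Aqp4 by 0.09 ± 0.05, Slc1a2 by 0.01 ± 0.04, Slc1a3 by 0.07 ± 0.06 and Aldh1l1 by 0.06 ± 0.04. The log2 summed signal was 10.73 to 10.83 in globin-labelled and 9.92 to 9.97 in empty vector arrays. The higher sum follows the called gene, with means of 10.25 and 8.79, and is not a rise of the list as a whole. The called gene was Aldoc, a glycolytic enzyme gene that neurons can also express, with a rise of 1.46 ± 0.05 (limma adjusted p = 1.28e-07), and with 0.21 ± 0.06 on a probe set that lay below the 10th percentile on all 7 arrays. Of 6 general neuronal markers Snap25 rose by 0.40 ± 0.05 (limma adjusted p = 2.54e-04), Tubb3 and Stmn2 fell by 0.80 ± 0.06 and 1.2 ± 0.06 (limma adjusted p = 1.70e-05 and 1.46e-06), and Gap43 differed by -0.09 ± 0.06. Nefl and Nefm, with 0.07 ± 0.08 and 0.04 ± 0.04, were not called and lay below the 10th percentile on all 7 arrays. Of 6 microglial markers Tyrobp rose by 0.19 ± 0.06 (limma adjusted p = 0.0367), Cd68, a lysosomal protein gene, fell by 1.25 ± 0.09 (limma adjusted p = 1.16e-05), and Csf1r differed by 0.10 ± 0.08. The endothelial marker Kdr fell by 0.27 ± 0.08 (limma adjusted p = 0.0247), the only call among 5. With each gene read by its probe set with the highest mean, none of 6 fibroblast and 5 erythroid markers was called by limma. At an unadjusted p under 0.05 the counts were 0 and 1, with -0.02 ± 0.06 for Dcn and 0.14 ± 0.05 for Epor. Other probe sets were called higher for the erythroid marker Ank1, by 0.36 ± 0.10 (limma adjusted p = 0.0194), and the fibroblast marker Pdgfra, by 0.17 ± 0.05 (limma adjusted p = 0.0269). That of Pdgfra lay below the 10th percentile on all 7 arrays. The part of any admixed cell type in the Ugt8a difference was not tested.

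Ugcg encodes glucosylceramide synthase, the entry to the gangliosides. Its 3 probe sets gave like values. Probe set 1421269_at read 10.19, 10.06, 9.99 and 10.04 in the globin-labelled arrays and 10.55, 10.45 and 10.57 in the empty vector arrays, a difference of -0.45 ± 0.06. The probe set 1421268_at read 9.86 to 10.01 in globin-labelled and 10.19 to 10.42 in empty vector arrays, and 1435133_at read 9.78 to 9.86 and 10.10 to 10.19. Their differences were -0.40 ± 0.07 and -0.32 ± 0.04, and on all 3 every globin-labelled array lay below every empty vector array. The signal was 1.25-fold to 1.37-fold lower, and the direction was thus opposite to that of Ugt8a, the other enzyme that adds a sugar to ceramide.

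St3gal5 encodes the sialyltransferase that makes the simplest ganglioside, GM3. One probe set, 1449198_a_at, read 9.75, 9.69, 9.64 and 9.69 in the globin-labelled arrays and 9.31, 9.30 and 9.41 in the empty vector arrays, a difference of 0.36 ± 0.05. The other, 1460241_a_at, read 9.23 to 9.30 in globin-labelled and 8.88 to 8.95 in empty vector arrays, a difference of 0.35 ± 0.04. These are 1.28-fold and 1.27-fold, and the groups did not overlap on either.

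St8sia1 encodes the enzyme that adds a second sialic acid and so opens the b series of gangliosides, and B4galnt1 encodes the enzyme that adds N-acetylgalactosamine to extend them to complex gangliosides. St8sia1 probe set 1419694_at read 5.96, 5.91, 5.98 and 5.98 in globin-labelled and 5.86, 5.70 and 5.78 in empty vector arrays, with a gap between the groups. Its difference of 0.18 ± 0.05 was called, though not without empty vector replicate 2, where it was 0.14. The other St8sia1 probe set, 1419695_at, differed by 0.12 ± 0.06 with overlapping groups, and it was called when empty vector replicate 1 was left out. B4galnt1 read 8.86, 8.83, 8.82 and 8.67 in globin-labelled and 8.41, 8.67 and 8.55 in empty vector arrays on 1418655_at. Globin-labelled replicate 4 and empty vector replicate 2 met, and the difference of 0.25 ± 0.07 was called but not without empty vector replicate 1, where it was 0.18. The other B4galnt1 probe set, 1425363_at, differed by 0.03 ± 0.07 and had no stable sign, with -0.04 to 0.12 over the alternatives.

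**Figure D2:**
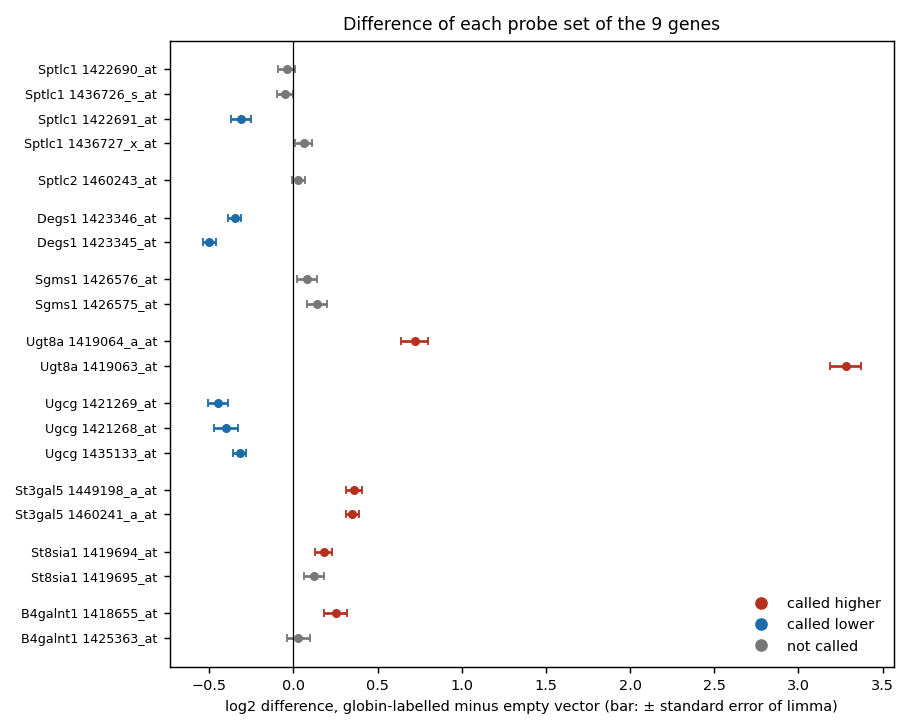
The log2 difference, globin-labelled minus empty vector (horizontal axis), of each of the 20 probe sets with limma's standard error as the bar; red points were called higher, blue lower and grey not called. Ugt8a stands at 3.28 and 0.72, the other probe sets lie between -0.50 and 0.36, and the colours describe a contrast that was known when the genes were listed.

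RefSeq promoters of build GRCm38.p6 were matched by symbol for 8 of the 9 genes. The 250 bases before the start are printed for the 4 genes whose probe sets all kept the groups apart, Ugt8a and St3gal5, which were higher, and Ugcg and Degs1, which were lower. They lie at chr3:125938653-125938902 on the minus strand for Ugt8a, chr6:72097358-72097607 on the plus strand for St3gal5, chr4:59189300-59189549 on the plus strand for Ugcg and chr1:182282196-182282445 on the minus strand for Degs1. The letters run 5′ to 3′ on the strand of the gene. Capitals mark matches, on either strand, to any of 5 motifs searched: the GC box (GGGCGG), the CCAAT box, the TATA box (TATAAA), the E box (CACGTG) and the cAMP response element (TGACGTCA).
Ugt8a: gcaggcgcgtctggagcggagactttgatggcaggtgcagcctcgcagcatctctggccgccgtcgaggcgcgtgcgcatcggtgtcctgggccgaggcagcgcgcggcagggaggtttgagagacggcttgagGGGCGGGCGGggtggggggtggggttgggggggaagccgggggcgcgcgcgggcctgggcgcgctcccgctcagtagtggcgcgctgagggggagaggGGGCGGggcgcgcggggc
St3gal5: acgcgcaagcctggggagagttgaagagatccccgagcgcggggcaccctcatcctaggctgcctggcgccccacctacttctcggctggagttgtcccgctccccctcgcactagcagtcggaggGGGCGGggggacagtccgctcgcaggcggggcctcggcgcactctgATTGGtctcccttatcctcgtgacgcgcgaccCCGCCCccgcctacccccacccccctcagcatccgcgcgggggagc
Ugcg: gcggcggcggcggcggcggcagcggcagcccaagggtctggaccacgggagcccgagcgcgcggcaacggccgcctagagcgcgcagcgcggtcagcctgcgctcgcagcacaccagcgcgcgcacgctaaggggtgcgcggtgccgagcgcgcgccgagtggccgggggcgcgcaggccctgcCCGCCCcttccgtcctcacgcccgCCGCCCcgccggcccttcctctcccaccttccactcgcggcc
Degs1: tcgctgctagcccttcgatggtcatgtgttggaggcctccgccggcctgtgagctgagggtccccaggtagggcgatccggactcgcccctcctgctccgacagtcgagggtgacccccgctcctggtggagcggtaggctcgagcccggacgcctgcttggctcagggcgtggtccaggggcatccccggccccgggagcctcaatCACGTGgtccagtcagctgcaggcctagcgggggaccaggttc
Ugt8a held 3 matches to the GC box, of which the first pair overlap, St3gal5 held 2 with 1 CCAAT, Ugcg held 2, and Degs1 held none but 1 E box. Of 32851 promoters of the same length, 32.7% held the GC box, 33.8% CCAAT and 6.02% the E box. The TATA box, found in 12.4%, and the cAMP response element, found in 1.55%, had 0 matches in these windows. The windows were 76.8% G or C for Ugt8a, 71.6% for St3gal5, 80.4% for Ugcg and 69.6% for Degs1, against a median of 52.4%. A match only describes the letters, and promoters of genes that were higher and of genes that were lower both held the GC box. No match says only that these letters are not in the window.

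The rest of the pathway was read from 6 lists with 56 genes, of which 44 had a probe set of their own. Each gene was represented by its probe set with the highest mean, and 16 rose and 9 fell (limma, adjusted over all probe sets), against 20.6% called higher and 20.1% called lower over all genes. The median difference was 0.06, against 0.02 over all genes. These genes were chosen by function, though with results of these data known.

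In ceramide synthesis 7 of 14 further genes had a probe set of their own, and of these 3 rose and 1 fell. Sptssa, a small subunit that activates serine palmitoyltransferase, rose by 0.28 ± 0.04 (limma adjusted p = 5.99e-04) beside the long subunits described above. Ormdl1, whose product holds that enzyme back, fell by 0.46 ± 0.05 (limma adjusted p = 6.49e-05). Ormdl2 and Ormdl3, also listed, had no probe set of their own. The ceramide synthase gene Cers4 read 9.86, 9.73, 9.87 and 9.68 in globin-labelled and 9.13, 9.37 and 9.26 in empty vector arrays, and it rose by 0.53 ± 0.07 (limma adjusted p = 2.51e-04), as did its other 2 probe sets by 0.26 and 0.36. Cers5 rose by 0.23 ± 0.05 (limma adjusted p = 0.00422). Cers2, which makes very long chain ceramides, did not pass, with -0.01 ± 0.04, and neither did the second desaturase gene Degs2, with 0.17 ± 0.08.

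In sphingomyelin synthesis and lipid transfer 0 of 4 genes rose and 2 fell. Cert1, which carries ceramide from the endoplasmic reticulum to the Golgi for sphingomyelin, read 8.87, 9.01, 9.06 and 8.96 in globin-labelled and 9.61, 9.32 and 9.27 in empty vector arrays. It fell by 0.42 ± 0.08 (limma adjusted p = 0.00301), and its other 2 probe sets fell by 0.50 and 0.51. The glycolipid transfer protein gene Gltp fell by 0.35 ± 0.06 (limma adjusted p = 0.00209). Samd8, a relative of the sphingomyelin synthases, and Cptp did not pass, with 0.02 ± 0.04 and -0.06 ± 0.04.

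On the galactolipid branch, Fa2h, which supplies the 2-hydroxylated fatty acid of myelin galactosylceramide, rose with values of 10.01, 9.96, 10.03 and 10.03 in globin-labelled and 9.32, 9.11 and 9.23 in empty vector arrays. The difference was 0.79 ± 0.05, or 1.73-fold (limma adjusted p = 5.56e-06), with the groups clear of each other. Gal3st1, which sulphates galactosylceramide to sulfatide, did not pass, with -0.03 ± 0.10.

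Of 14 further genes of glycosphingolipid and ganglioside synthesis 7 rose and 2 fell. St6galnac5, an enzyme of alpha-series gangliosides known from brain, read 8.56, 8.63, 8.65 and 8.67 in globin-labelled and 7.17, 7.72 and 7.48 in empty vector arrays, a rise of 1.17 ± 0.11 (limma adjusted p = 3.54e-05), and its other probe set rose by 0.56. The related sialyltransferase gene St6galnac4 rose by 0.54 ± 0.05 (limma adjusted p = 2.45e-05), and its other probe set rose by 0.26. St6galnac3 also rose by 0.54 ± 0.05 (limma adjusted p = 4.22e-05), with 0.01 on its other probe set. St3gal2, which caps complex gangliosides with sialic acid, rose by 0.35 ± 0.05 (limma adjusted p = 8.03e-04), with 0.30 on another probe set, also called, and 0.10 on one that was not called. The 2 that fell were the sialyltransferase gene St8sia3, by 0.47 ± 0.08 (limma adjusted p = 0.0019), and the lactosylceramide synthase gene B4galt5, by 0.31 ± 0.07 (limma adjusted p = 0.00522). B4galt6, also a lactosylceramide synthase gene, rose by 0.17 ± 0.04 (limma adjusted p = 0.00868), with 0.13 at most on its other probe sets, none of them called. Its means were 10.96 in globin-labelled and 10.79 in empty vector arrays, against 6.60 and 6.91 for B4galt5. B3galt4, which follows B4galnt1 in the chain, and A4galt, which makes globosides, did not pass, with 0.06 ± 0.06 and -0.06 ± 0.06.

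Among 10 genes of sphingosine 1-phosphate and ceramide 1-phosphate 2 rose and 2 fell. Sgpl1, the lyase that ends sphingolipid breakdown, fell by 0.38 ± 0.05 (limma adjusted p = 1.92e-04) and by 0.60 on its other probe set, and Sphk1, a sphingosine kinase, fell by 0.28 ± 0.07 (limma adjusted p = 0.00757), with -0.03 on its other probe set. The receptor gene S1pr4 rose by 0.23 ± 0.05 (limma adjusted p = 0.00627). S1pr5, a receptor known from oligodendrocytes, was called with 0.38 ± 0.10 (limma adjusted p = 0.0158), but it lay below the 10th percentile on all 7 arrays and did not pass without empty vector replicate 1 (limma adjusted p = 0.0556) or replicate 2 (limma adjusted p = 0.0633), which left 1 gene of the list called higher. The phosphatase gene Sgpp1 and the ceramide kinase gene Cerk did not pass, with 0.15 ± 0.07 and 0.13 ± 0.05, though Sgpp1 did without globin-labelled replicate 1 (0.22, limma adjusted p = 0.00583).

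Of 7 genes of breakdown outside the lysosome 3 rose and 2 fell. Asah2, the neutral ceramidase, rose by 0.81 ± 0.06 (limma adjusted p = 1.00e-05), with 8.20 to 8.41 in globin-labelled and 7.43 to 7.59 in empty vector arrays, and its other probe set rose by 0.36 ± 0.07. The neutral sphingomyelinase genes Smpd3 and Smpd2 rose by 0.72 ± 0.07 (limma adjusted p = 6.88e-05) and 0.29 ± 0.07 (limma adjusted p = 0.00742), and the other Smpd3 probe set, with 0.38, was not called. Gba2, the non-lysosomal glucosylceramidase, fell by 0.44 ± 0.09 (limma adjusted p = 0.00337), with its other probe set at 0.07. Smpd4 fell by 0.18 ± 0.04 (limma adjusted p = 0.00917), with -0.09 to 0.04 on its other probe sets, none of them called. The ceramidase genes Acer1 and Acer2 did not pass, with 0.13 ± 0.05 and -0.07 ± 0.06, though Acer1 did without globin-labelled replicate 3 or without empty vector replicate 1 (0.16 in both, limma adjusted p = 0.0435 and 0.0371) and with arrays shifted to a common median (limma adjusted p = 0.0471). In the lysosome, 7 of 10 measured genes of sphingolipid breakdown fell and 2 rose, with the alpha-galactosidase gene Gla at -1.83 ± 0.07, the hexosaminidase gene Hexa at -0.61 ± 0.04, the galactosylceramidase gene Galc, which removes the sugar that Ugt8a adds, at -0.42 ± 0.04, and the activator gene Gm2a at 0.37 ± 0.04 (limma adjusted p from 1.62e-07 to 6.34e-05). The other Galc probe sets gave -0.47 and -0.07, the latter below the arrays' 10th percentile on all 7 arrays. The beta-galactosidase gene Glb1 did not pass, with -0.11 ± 0.04, though it did in 4 alternatives: without empty vector replicate 1 (limma adjusted p = 0.0224), without that array and globin-labelled replicate 4 (0.0403), with dim probe sets left out (0.0441) and with trend and robust estimation (0.0429).

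**Figure D3:**
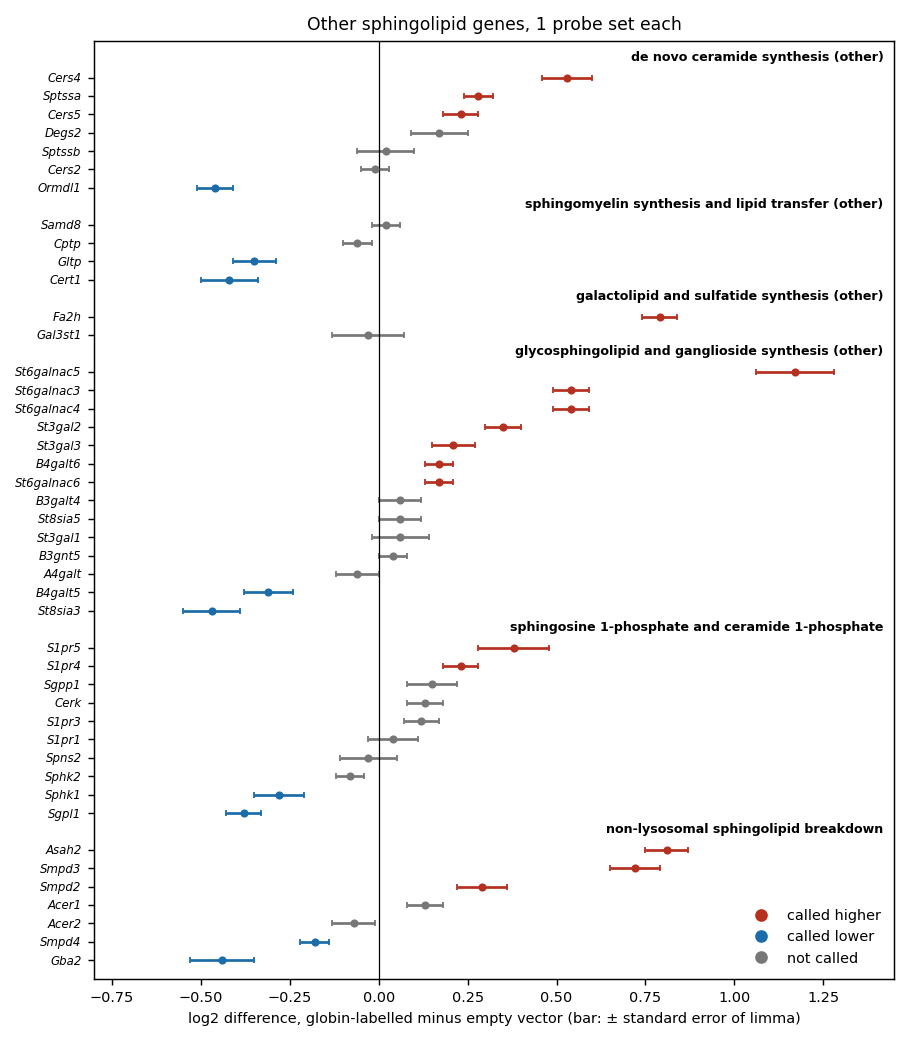
The log2 difference, globin-labelled minus empty vector (horizontal axis), of 44 further sphingolipid genes in 6 lists, 1 probe set a gene, with limma's standard error as the bar; red points were called higher, blue lower and grey not called. St6galnac5 at 1.17, Asah2 at 0.81 and Fa2h at 0.79 lie furthest to the right, and St8sia3 and Ormdl1 furthest to the left at -0.47 and -0.46.

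The genes next to the members in the RefSeq gene order of GRCm38.p6 were also read, 3 measured genes on each side. Of these 54 neighbours 17 rose and 11 fell, which is 51.9% called against 40.7% over all genes. Next to Ugt8a on chromosome 3, 4 of 6 rose and 0 fell, while the heparan sulfotransferase genes Ndst3 and Ndst4 did not pass, with 0.08 ± 0.05 and -0.01 ± 0.04. Ndst4 was the nearest measured gene, with its start 461 kb from that of Ugt8a. The starts of the 4 that rose lay 730 to 1767 kb away. Ndst3 was dim, with means of 4.72 in globin-labelled and 4.64 in empty vector arrays. Tram1l1 rose by 2.56 ± 0.06 (limma adjusted p = 1.05e-08), and Neurog2, a proneural transcription factor gene, by 1.09 ± 0.07 (limma adjusted p = 5.87e-06). Camk2d, a calcium-dependent kinase gene, rose by 0.52 ± 0.06 (limma adjusted p = 1.79e-04), and Larp7, which binds the small nuclear RNA 7SK, by 0.18 ± 0.06 (limma adjusted p = 0.0434). Around Ugcg on chromosome 4, 4 of 6 neighbours fell and 0 rose, and around Sgms1 on chromosome 19, where Asah2 is the next gene, 5 of 6 rose and 0 fell. The other members had 1 to 4 called neighbours of 6, in both directions around Degs1, St3gal5 and St8sia1.

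**Figure D4:**
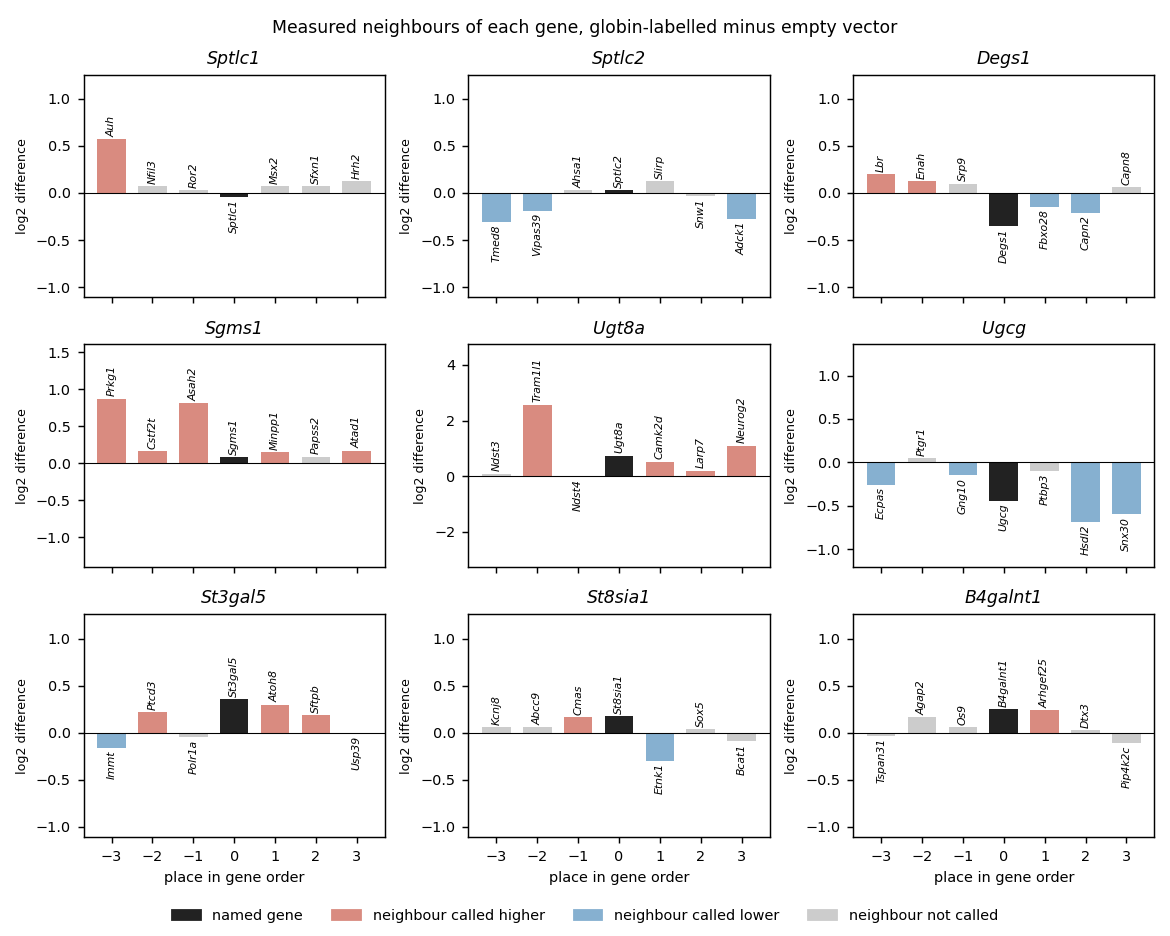
The log2 difference, globin-labelled minus empty vector (vertical axis, own scale in each panel), of each of the 9 genes (black, place 0) and of the 3 measured genes on either side of it in gene order (horizontal axis), each by its probe set with the highest mean; red neighbours were called higher, blue lower and grey not called. Around Ugt8a the called neighbours stand above 0, with Tram1l1 at 2.56, and around Ugcg they stand below 0.

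The genes whose values over the 7 arrays were most like those of Ugt8a probe set 1419063_at were Crabp2, Cbx2, Limch1, Reep6 and Krt8, with Pearson's r of 0.9988 to 0.9992 and differences of 0.87 to 2.77. The most opposite were Gosr2, Gpr137b, Prmt6, Pgap4 and Lysmd3, with r of -0.9999 to -0.9983 and differences of -1.41 to -0.30. Among 12392 genes, 176 had an r above 0.99 and 134 an r below -0.99. All of these values share the same 7 arrays, which fall into 2 groups.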

How the data were processed

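The labels' protocols describe one-cycle amplification of MN9D RNA and hybridisation to 1 array per sample. The log2 values that the authors deposited come from RMA, according to the submitters' processing notes, and no version or program is named there. All 7 sample columns were used as deposited. Of 22690 probe sets 64 array controls were left out, and 22626 were fitted with limma 3.58.1 in R 4.3.3 (functions lmFit and eBayes, a two-sided test with 1 term for group, Benjamini-Hochberg adjustment over all 22626, called at an adjusted p under 0.05). Platform annotation gave 1 symbol for 20380 probe sets, several for 691 and none here for 1555. The fit was checked on simulated data.

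The members and lists were chosen with earlier results of these data known. Named beside the members were, in each list, up to 4 called genes by smallest p and up to 2 not called by highest mean, the 5 genes most and least like the member probe set with the largest difference, and the nearest 3 measured genes on each side of a member (named where a probe set differed by at least 1, Asah2 being named as a listed gene too). Marker genes were named where they had the highest mean of their list and where they were called in the dopaminergic or the oligodendrocyte and Schwann cell list. The other marker genes and the list genes St8sia3, St8sia5, B4galt5, B4galt6 and Smpd4 were named after their values were seen. Alternatives were 2 other array scalings, a filter on dim probe sets, another variance model, replicate number as a block, each array left out in turn, and empty vector replicate 1 with globin-labelled replicate 4 left out, and, for the gene counts, the mean of a gene's probe sets and a minimum fold of 1.2. Deviations from the group means of same-numbered arrays correlated at -0.364, -0.299 and -0.145, and those of differently numbered arrays at -0.227 to 0.28. Same-numbered arrays thus did not deviate alike, and the main fit does not pair them. The cause of the negative values was not tested. Background correction could not be varied from these values.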

Additional observations from a re-analysis of the deposited data

Results flagged for a closer look

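In 3 of 74 probe sets checked, 1 globin-labelled array stood apart from the other 3 by more than Dixon's 95% limit for groups of 4, and chance flags about 1 in 20 groups. Sptlc1 1436727_x_at read 6.33 on replicate 4 and 6.26 on each of the others, and St8sia5 read 7.48 on replicate 2 and 7.30 on each of the others. In each the same value to 4 decimals, 6.2622 for Sptlc1 and 7.3003 for St8sia5, stood on 4 of the 7 arrays. The ganglioside sialyltransferase gene St8sia3 read 9.64 on replicate 4 and 9.97 to 10.01 on the others. The 3 empty vector arrays are too few for this check.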

How the results depend on the processing

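The 12 called member probe sets kept their direction under every alternative that tested them. The number called was 10 to 13 over the alternatives, lowest with dim probe sets left out, which kept 15 of the 20. That filter removed Ugt8a 1419063_at, the probe set with the largest difference, and St8sia1 1419694_at, so neither was tested under it. With 1 array left out the number called was 11 to 12. Without empty vector replicate 1 and globin-labelled replicate 4, a pair that an earlier account of these data set apart, 13 of the 20 member probe sets and 23 of the 44 other genes were called, against 12 and 25. Among the 44 other sphingolipid genes 11 to 18 were called higher and 7 to 9 lower, and over all probe sets 6337 to 9224 were called, the lowest number with replicate number as a block, which leaves out globin-labelled replicate 4. Same-numbered arrays did not deviate alike. Under that block 11 member probe sets were called, St8sia1 1419694_at not among them, and 4 of the ganglioside list were called higher, against 7. Of the genes of breakdown outside the lysosome 1 was called lower under that block, against 2. The difference of Sptlc2 moved to 0.06 under quantile normalisation, against 0.03. Values near 0 changed sign for 2 named genes that were not called: Cers2 gave 0.00 with arrays shifted to a common median, 0.01 with the replicate block and with empty vector replicate 1 and globin-labelled replicate 4 both left out, and -0.03 to 0.01 with single arrays left out, and Gal3st1 gave -0.11 to 0.04 with single arrays left out, among them 0.01 without globin-labelled replicate 1 or 3. Without empty vector replicate 1 and globin-labelled replicate 4 S1pr5 was not called (limma adjusted p = 0.0872), and Cerk was called with arrays shifted to a common median (limma adjusted p = 0.0467), under quantile normalisation (limma adjusted p = 0.0201) and with dim probe sets left out (limma adjusted p = 0.0454). The cause of these changes was not tested. Signal near the arrays' lower end limits St8sia1, S1pr5 and the empty vector values of Ugt8a 1419063_at.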
